A study of Mus musculus with 6 samples.

Results

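The 10 genes described here make, sense or break down prostaglandins, and were taken as a fixed list by gene symbol from the 21959 genes of the deposited table. All 10 were found. They are the cyclooxygenase genes Ptgs1 and Ptgs2, the prostaglandin E synthase genes Ptges, Ptges2 and Ptges3, the prostaglandin D synthase gene Hpgds, the thromboxane synthase gene Tbxas1, the prostaglandin E2 receptor genes Ptger2 and Ptger4, and the breakdown enzyme gene Hpgd. Levels are given in FPKM, which scales the reads of a gene to its length and to the size of the library, in 3 libraries labelled GPR35-positive and 3 labelled GPR35-negative. The cells are labelled as neutrophils associated with mouse tumours of Hepa1-6, a hepatoma cell line, and the groups differ by GPR35, a cell surface receptor coupled to G proteins. Both groups share the tumour model, and the labels name no strain, age, treatment or genotype. The sorting method and the animals behind each library are not given in the sources used here. Reported p-values therefore cover the spread between these libraries alone, and that spread may be technical.

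Prostanoids are short-lived lipid signals made from arachidonic acid. A phospholipase frees the arachidonic acid, a cyclooxygenase turns it into the intermediate prostaglandin H2, and a terminal synthase then sets which product leaves the cell. Prostaglandin E2 acts through several receptors, of which EP2 and EP4, the products of Ptger2 and Ptger4, raise cyclic AMP, and in tumours it is known for dampening the activity of immune cells.

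The libraries held 15742745 to 18314107 reads assigned to genes, and Gpr35 itself averaged 20.2 ± 1.89 FPKM in GPR35-positive and 1.57 ± 0.398 FPKM in GPR35-negative libraries (SD, n = 3 each). All 14 neutrophil markers in the list were higher in GPR35-positive libraries, and their summed level ran from 9393 to 10360 FPKM there and from 839 to 1089 FPKM in GPR35-negative libraries. Of 12 macrophage markers 8 passed the filter and all 8 were higher. The 12 summed to 937 to 969 FPKM in GPR35-positive and 36.7 to 50.1 FPKM in GPR35-negative libraries. Marco, Timd4, Vsig4 and Clec4f were below the filter. Marco had 5, 12 and 9 reads and Timd4 4, 1 and 1 reads in GPR35-positive libraries, and both were listed at 0 in every GPR35-negative library. Vsig4 and Clec4f had 0 to 2 reads in any library, too few to give a direction. All 12 hepatocyte and hepatoma markers were lower, with sums of 16433 to 16832 FPKM in GPR35-positive and 24692 to 25999 FPKM in GPR35-negative libraries. These sums lay above the neutrophil sums in every library despite the label neutrophil. Single genes carried much of them: Trf averaged 7130 and S100a8 5262 FPKM in GPR35-positive, and 10855 and 517 FPKM in GPR35-negative libraries. Sums of different lists depend on the genes listed and are not shares of cells. Among all genes tested 23.3% were called higher and 45.5% lower. For Fpr2 in the neutrophil list and Adgre1, Csf1r and Mrc1 in the macrophage list, no GPR35-negative library reached 1 FPKM, the filter level. Those markers passed only through the GPR35-positive libraries, so their direction is not support by itself. In such bulk libraries fewer cells of a type and less RNA per cell cannot be told apart, and the part of these marker differences in the prostanoid results was not tested.

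The promoters of Ptgs1, Ptgs2 and Ptges are shown because the cyclooxygenase genes rose in GPR35-positive libraries and the best known prostaglandin E synthase gene did not. The sequences are from RefSeq on GRCm38.p6, 5′ to 3′ on the strand of the gene, from 250 bases before to 50 bases after the annotated start; they lie at chr2:36230176-36230475 on the forward strand for Ptgs1, chr1:150099781-150100080 on the forward strand for Ptgs2 and chr2:30903248-30903547 on the reverse strand for Ptges. Capitals mark matches to any of 6 motifs searched on both strands.
Ptgs1: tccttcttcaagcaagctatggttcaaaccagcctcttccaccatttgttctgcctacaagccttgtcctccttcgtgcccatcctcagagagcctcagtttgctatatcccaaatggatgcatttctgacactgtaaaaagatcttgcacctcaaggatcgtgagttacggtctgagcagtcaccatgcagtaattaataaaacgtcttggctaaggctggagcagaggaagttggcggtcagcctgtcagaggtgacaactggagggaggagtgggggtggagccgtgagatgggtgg
Ptgs2: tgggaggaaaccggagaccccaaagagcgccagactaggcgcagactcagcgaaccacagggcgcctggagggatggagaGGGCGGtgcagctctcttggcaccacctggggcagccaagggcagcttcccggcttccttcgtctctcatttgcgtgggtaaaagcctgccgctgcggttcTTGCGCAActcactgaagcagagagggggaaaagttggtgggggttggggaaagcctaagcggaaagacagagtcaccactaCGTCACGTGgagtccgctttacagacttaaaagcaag
Ptges: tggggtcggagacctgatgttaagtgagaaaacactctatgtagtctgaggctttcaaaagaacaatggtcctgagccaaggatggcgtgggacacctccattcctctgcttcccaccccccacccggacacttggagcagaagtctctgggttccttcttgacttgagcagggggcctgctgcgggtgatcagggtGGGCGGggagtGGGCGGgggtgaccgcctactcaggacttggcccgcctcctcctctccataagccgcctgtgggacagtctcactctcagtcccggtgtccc

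The Ptgs2 window held 4 of the 6 motifs. The C/EBP site TTGCGCAA, at −69 to −62 from the start, is in 0.183% of 32851 mouse promoter windows of the same length. The cAMP-response half-site CGTCA, at 14 to 18 after the start, is in 20.8% of them, and it overlaps the E-box CACGTG at 17 to 22, which is in 7.15%. A GC box, GGGCGG, at −170 to −165 is in 35.7%. The Ptges window held GC boxes at −53 to −48 and at −42 to −37 and none of the other motifs, and the Ptgs1 window held none of the 6. The letters TATAAA of the TATA box (13.6% of windows) were found in Hpgd and Tbxas1 among the 10 genes. In Hpgd they lay at 5 to 10 after the start, and in Tbxas1 at −13 to −8 on the reverse strand and at −11 to −6. GGGNNTTCC, a letter pattern like sites of the kB type (5.82%), was found in none of the 10. Of the other listed genes, Ptges3 held CGTCA, Ptges2 held CACGTG, and Hpgd, Ptger4 and Ptges3 held GGGCGG. These matches describe letters in 1 window for each gene, and the RefSeq starts of Ptges and Tbxas1 lie well inside their GENCODE genes, at 30903297 on chromosome 2 for Ptges and at 38918986 on chromosome 6 for Tbxas1. All positions, those of Ptgs2 included, count from the annotated start, and whether transcription begins there in these cells was not tested.

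In GPR35-positive libraries 7 of the 10 prostanoid genes were higher, 2 were lower and 1, Ptges2, did not pass. Calls are limma adjusted p-values under 0.05 on log2(FPKM + 1), over the 10060 genes that reached 1 FPKM in 3 or more libraries. Among all those genes 23.3% were called higher and 45.5% lower, 68.8% in all, and the groups did not overlap in 72.5%, so a call by itself is the usual outcome in these libraries. The median log2 fold change was 1.66 over the 10 prostanoid genes and −0.19 over all genes tested. Of the 10, 5 (Ptgs1, Hpgds, Tbxas1, Ptger4 and Hpgd) passed the filter only through the GPR35-positive libraries, where they are high. Ptger2, at 1 FPKM or more in 2 GPR35-negative libraries, also needed the GPR35-positive ones to pass. These counts and that median therefore do not support a direction on their own. With median-of-ratios scaling 2731 genes were called higher and 3036 lower, compared with 2342 higher and 4575 lower as deposited, and the median over all genes was −0.07.

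**Figure D1:**
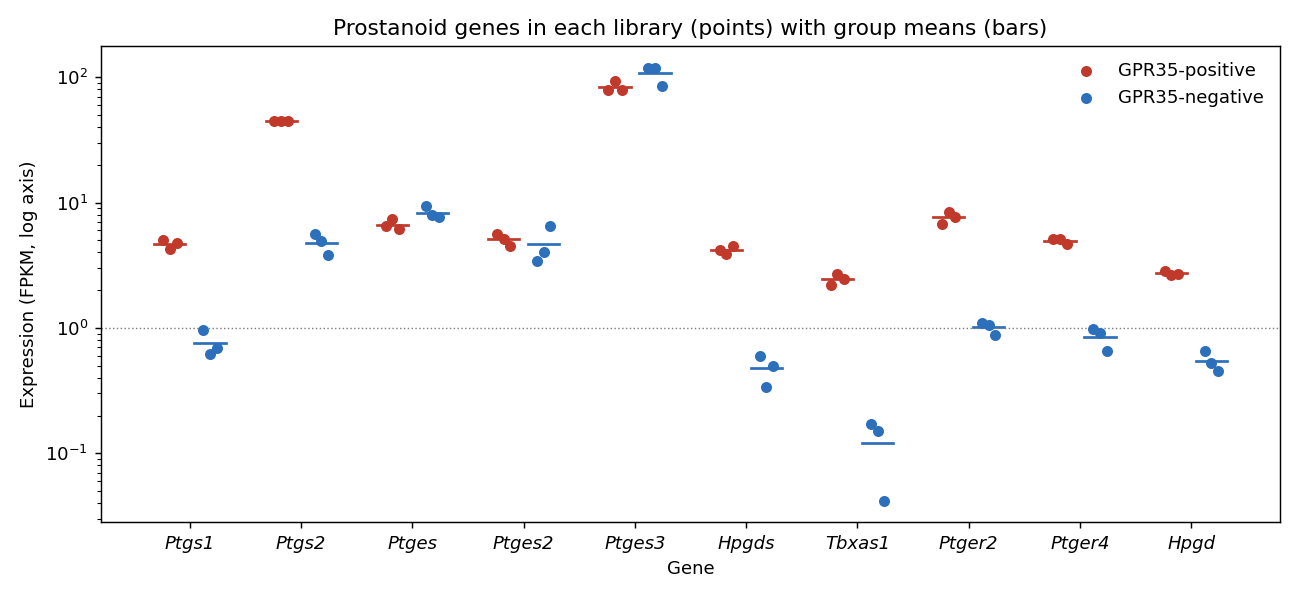
FPKM (log axis) of the 10 prostanoid genes in each library, GPR35-positive left and GPR35-negative right for each gene; points are libraries, bars are group means, and the dotted line is 1 FPKM, the level used in the filter. Ptgs2 sits between 44.4 and 44.7 FPKM in all 3 GPR35-positive libraries and between 3.81 and 5.62 FPKM in the GPR35-negative ones, while the points of Ptges2 and Ptges3 overlap between groups.

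Both cyclooxygenase genes were several-fold higher in GPR35-positive libraries. Ptgs2 encodes the inducible cyclooxygenase, the step that inflammatory signals usually switch on. Its level was 44.5, 44.4 and 44.7 FPKM in GPR35-positive libraries, compared with 5.62, 4.97 and 3.81 FPKM in GPR35-negative ones. The groups were far apart, and the GPR35-positive libraries were nearly equal. The ratio of means was 9.27 and the log2 fold change 2.98 (SE 0.11, limma adjusted p = 4.14e-09). The gene, ENSMUSG00000032487 (GRCm38, chromosome 1, 150100031 to 150108227, forward strand), was covered by 3322 to 3746 reads in GPR35-positive and by 275 to 444 reads in GPR35-negative libraries.

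Ptgs1 (ENSMUSG00000047250, chromosome 2, 36230426 to 36252272, forward strand) encodes the cyclooxygenase that many cells make constitutively and that serves platelets. Its level was 5.05, 4.29 and 4.78 FPKM in GPR35-positive libraries, compared with 0.956, 0.623 and 0.687 FPKM in GPR35-negative ones, again without overlap. The means differed by a ratio of 6.23 and a log2 fold change of 1.70 (SE 0.10, limma adjusted p = 1.26e-07). Ptgs2 was the larger of the pair in every library. It made up 90.4 ± 0.698% of their summed FPKM in GPR35-positive and 86.4 ± 2.20% in GPR35-negative libraries (SD, n = 3 each). That share was higher in each GPR35-positive library than in any GPR35-negative one, with a two-sided exact permutation p of 0.1, the smallest that 3 against 3 allows (0.15 adjusted over 6 ratios). The difference in share was 4.09 percentage points, and 12.2 with a pseudocount of 1 FPKM.

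None of the 3 prostaglandin E synthase genes was called higher in GPR35-positive libraries. Among all genes tested 23.3% were called higher, so none among 3 is not unusual by itself. Ptges (ENSMUSG00000050737, chromosome 2, 30889471 to 30929863, reverse strand) encodes the microsomal enzyme that is usually induced along with Ptgs2. Its level was 6.49, 7.35 and 6.13 FPKM in GPR35-positive libraries, compared with 9.34, 7.94 and 7.71 FPKM in GPR35-negative ones. The groups did not overlap, but the gap between the nearest libraries was small. Their means stood at a ratio of 0.799, with a log2 fold change of −0.28 (SE 0.10, 95% interval −0.50 to −0.07, limma adjusted p = 0.0251), beside −0.19 for the median of all genes tested. The call ended under median-of-ratios scaling (−0.16, adjusted p = 0.163), without a filter on low values (an adjusted p just above 0.05), and without GPR35-positive replicate 1 (0.0616), GPR35-positive replicate 3 (0.110) or GPR35-negative replicate 1 (0.0845).

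Ptges3 (ENSMUSG00000071072, chromosome 10, 128058954 to 128077272, forward strand) encodes the cytosolic synthase, a protein better known as p23, a co-chaperone of the heat shock protein HSP90. It was the most abundant of the 10 genes in both groups, at 79.3, 92.9 and 79.9 FPKM in GPR35-positive libraries, compared with 119.6, 118 and 85.3 FPKM in GPR35-negative ones. GPR35-negative replicate 3 lay within the range of the GPR35-positive libraries. That is a ratio of means of 0.782 and a log2 fold change of −0.34 (SE 0.12, limma adjusted p = 0.0323). That call also ended under median-of-ratios scaling (−0.20, adjusted p = 0.163), without a filter (0.0949), and without GPR35-positive replicate 1 (0.0929), GPR35-positive replicate 3 (0.0953), GPR35-negative replicate 1 (0.118) or GPR35-negative replicate 2 (0.118). The related gene Ptges3l had 0 to 7 reads in any library. A pseudogene copy, Ptges3-ps, was not found under that symbol among the deposited genes. Reads shared with it were not analysed here, so the level of Ptges3 is uncertain to that extent.

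Ptges2 (ENSMUSG00000026820, chromosome 2, 32395896 to 32405772, forward strand) encodes a membrane-associated synthase that is expressed widely and is not usually induced. Its level was 5.65, 5.15 and 4.52 FPKM in GPR35-positive libraries, compared with 3.41, 4.01 and 6.52 FPKM in GPR35-negative ones. GPR35-negative replicate 3 was the highest of all 6 libraries, and the groups overlapped. The means gave a log2 fold change of 0.15 (SE 0.17, 95% interval −0.24 to 0.53, limma adjusted p = 0.457). Without GPR35-negative replicate 3 it was 0.37 and passed (adjusted p = 0.0109), and without GPR35-negative replicate 1 it was −0.012.

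Set against Ptgs2 in the same library, Ptges stood in the opposite order in the groups. The log2 ratio of Ptges to Ptgs2 was −2.78, −2.59 and −2.87 in GPR35-positive libraries, against 0.73, 0.68 and 1.02 in GPR35-negative ones. Ptges was therefore below Ptgs2 in every GPR35-positive library and above it in every GPR35-negative one. The mean was −2.75 ± 0.14 in GPR35-positive and 0.81 ± 0.18 in GPR35-negative libraries (SD, n = 3 each), a difference of −3.55 (two-sided exact permutation p = 0.1, the smallest possible, and 0.15 adjusted over 6 ratios). The difference lay between −3.63 and −3.45 when each library was left out in turn. Summed, the 3 prostaglandin E synthase genes were at 95.8 ± 8.33 FPKM in GPR35-positive and 120.5 ± 18.2 FPKM in GPR35-negative libraries (SD, n = 3 each). The cyclooxygenase genes summed to 49.2 ± 0.463 FPKM in GPR35-positive and 5.56 ± 1.04 FPKM in GPR35-negative libraries (SD, n = 3 each).

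**Figure D2:**
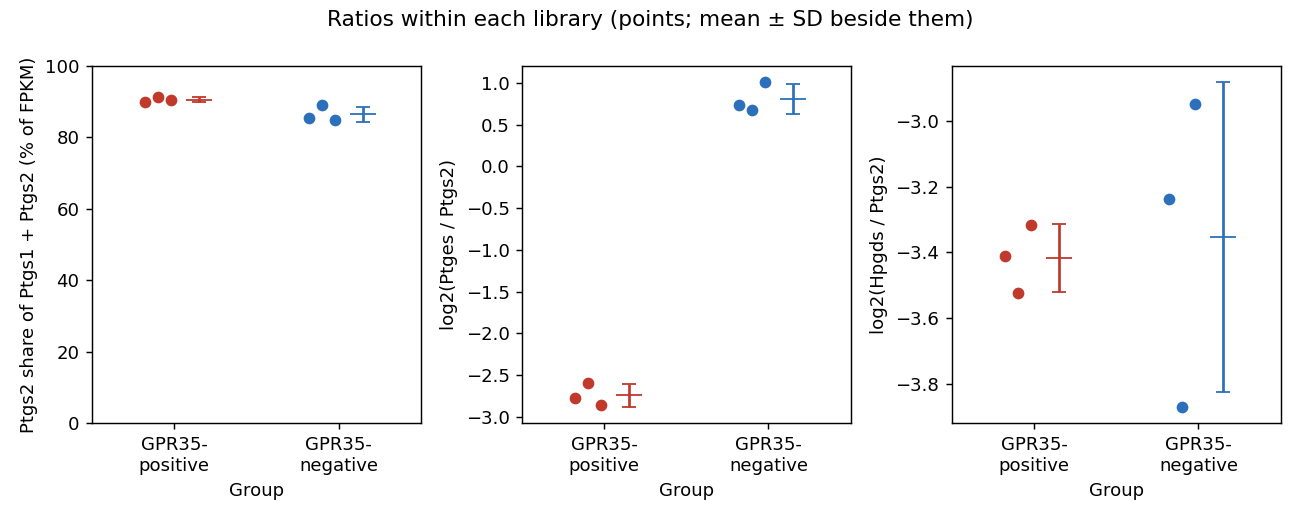
Ratios of FPKM within each library, GPR35-positive left and GPR35-negative right; points are libraries and the bars beside them are means ± SD (n = 3). The log2 ratio of Ptges to Ptgs2 is −2.59 or lower in every GPR35-positive library and 0.68 or higher in every GPR35-negative one, while that of Hpgds to Ptgs2 overlaps between the groups.

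The genes of the terminal synthases for prostaglandin D2 and thromboxane A2 both rose. Hpgds (ENSMUSG00000029919, chromosome 6, 65117293 to 65144908, reverse strand) encodes the haematopoietic prostaglandin D synthase, known from mast cells, macrophages and some T cells. Its level was 4.19, 3.86 and 4.48 FPKM in GPR35-positive libraries, compared with 0.596, 0.340 and 0.494 FPKM in GPR35-negative ones, with no overlap. The means gave a ratio of 8.76 and a log2 fold change of 1.81 (SE 0.09, limma adjusted p = 4.76e-08). Relative to Ptgs2 it stood at a log2 ratio of −3.42 ± 0.10 in GPR35-positive and −3.35 ± 0.47 in GPR35-negative libraries (SD, n = 3 each), and those values overlapped (two-sided exact permutation p = 0.8; 0.8 adjusted over 6 ratios). The summed level of 8 mast cell and basophil markers was 23.4 to 30.7 FPKM in GPR35-positive and 7.46 to 11.9 FPKM in GPR35-negative libraries, a ratio of 2.81. Only 4 of those 8 passed the filter. The ratio was 21.8 for the summed macrophage markers and 0.874 for those of T and NK cells. The part of any of these cell types in the Hpgds difference was not tested.

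Tbxas1 (ENSMUSG00000029925, chromosome 6, 38875404 to 39084585, forward strand) encodes thromboxane A synthase, known from platelets and from macrophages. Its level was 2.18, 2.67 and 2.47 FPKM in GPR35-positive libraries, compared with 0.172, 0.149 and 0.0419 FPKM in GPR35-negative ones. Its mean was the lowest of the 10 genes in both groups, although its values overlapped those of Hpgd in GPR35-positive libraries. It was covered by 340, 397 and 412 reads in GPR35-positive libraries, against 27, 23 and 6 reads in GPR35-negative ones. For the 6 reads of GPR35-negative replicate 3 the exact 95% Poisson interval was 2.20 to 13.1 reads, which covers counting error only. The ratio of means, 20.2, was the largest of the 10 genes, and the log2 fold change was 1.62 (SE 0.09, limma adjusted p = 6.27e-08), or 4.49 with limma-voom on reads, where no pseudocount of 1 FPKM holds down a low gene.

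The summed macrophage markers differed by a ratio of 21.8 and the neutrophil markers by 10.3 between the same libraries. The 9 platelet and megakaryocyte markers summed to 58.2 to 61.6 FPKM in GPR35-positive libraries, compared with 59.9 to 77.9 FPKM in GPR35-negative ones, most of it Ppbp (58.9 to 77.0 FPKM in the GPR35-negative ones), which was called lower. Its members did not go one way: Clec1b was called higher, at 5.73 ± 0.762 FPKM in GPR35-positive and 0.183 ± 0.0507 FPKM in GPR35-negative libraries (SD, n = 3 each), and Tubb1, below the filter, had a ratio of means of 2.73. Gp9, with 3 to 6 reads in GPR35-positive libraries, and Treml1, with 1 read in 1 of them, were listed at 0 in every GPR35-negative library. The part of any of these cell types in the Tbxas1 difference was not tested.

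**Figure D3:**
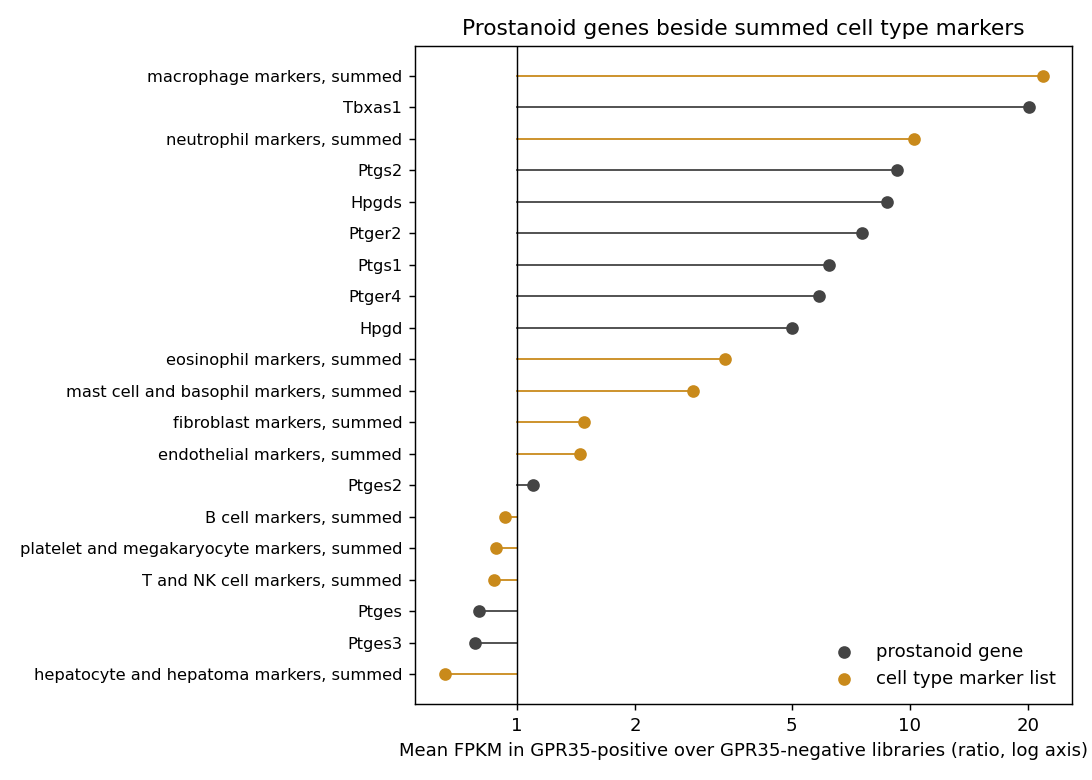
Ratio of mean FPKM in GPR35-positive over GPR35-negative libraries (log axis) for each prostanoid gene and for the summed markers of 10 cell type lists. The 7 genes that rose lie between 5.02 and 20.2, and Ptges and Ptges3 at 0.799 and 0.782; macrophage markers lie at 21.8, neutrophil markers at 10.3, platelet markers at 0.882, T and NK cell markers at 0.874 and hepatocyte and hepatoma markers at 0.654.

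Both prostaglandin E2 receptor genes in the list were higher in GPR35-positive libraries. Ptger2 (ENSMUSG00000037759, chromosome 14, 44988195 to 45003820, forward strand), the EP2 gene, was at 6.73, 8.48 and 7.73 FPKM in GPR35-positive libraries, compared with 1.09, 1.06 and 0.881 FPKM in GPR35-negative ones. The means gave a ratio of 7.57 and a log2 fold change of 2.10 (SE 0.10, limma adjusted p = 2.48e-08). Ptger4 (ENSMUSG00000039942, chromosome 15, 5206661 to 5244187, reverse strand), the EP4 gene, was at 5.08, 5.12 and 4.71 FPKM in GPR35-positive libraries, compared with 0.977, 0.906 and 0.659 FPKM in GPR35-negative libraries, a ratio of 5.87 and a log2 fold change of 1.70 (SE 0.09, limma adjusted p = 7.74e-08). Neither gene's groups overlapped. Ptger2 was above Ptger4 in every library, and their log2 ratio, 0.62 ± 0.18 in GPR35-positive and 0.27 ± 0.13 in GPR35-negative libraries (SD, n = 3 each), did not separate the groups (two-sided exact permutation p = 0.2; 0.24 adjusted over 6 ratios). Exons of the antisense gene Gm15937 cover 15.3% of the exon bases of Ptger4, and the sources used here do not say whether reads were counted by strand.

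The other prostanoid receptor genes had few reads. The genes of EP1 and EP3 (Ptger1 and Ptger3), of the prostaglandin D2 receptors (Ptgdr and Ptgdr2) and of the prostaglandin F receptor (Ptgfr) had 0 to 6 reads in any library. The thromboxane receptor gene Tbxa2r had 10, 2 and 1 reads in GPR35-positive libraries, against 0, 4 and 1 reads in GPR35-negative ones. Ptgir, the prostacyclin receptor gene, had 22, 20 and 15 reads in GPR35-positive libraries, against 2, 2 and 0 reads in GPR35-negative ones, and like the other 6 was below the filter. At these depths differences in the first 6 were not detectable.

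Hpgd (ENSMUSG00000031613, chromosome 8, 56294585 to 56321043, forward strand) encodes hydroxyprostaglandin dehydrogenase, the enzyme that inactivates prostaglandin E2. It was higher in GPR35-positive libraries, at 2.84, 2.66 and 2.69 FPKM, against 0.655, 0.526 and 0.453 FPKM in GPR35-negative ones, with no overlap. The ratio of means, 5.02, was the smallest among the 7 genes that rose, and the log2 fold change was 1.27 (SE 0.08, limma adjusted p = 2.80e-07). It rested on 73 to 83 reads in GPR35-positive and 12 to 19 reads in GPR35-negative libraries. Relative to Ptgs2, Hpgd was lower in GPR35-positive libraries, at a log2 ratio of −4.03 ± 0.05, against −3.14 ± 0.09 in GPR35-negative ones (SD, n = 3 each; two-sided exact permutation p = 0.1, the smallest possible, and 0.15 adjusted over 6 ratios). The log2 ratio of Tbxas1 to Ptgs2 went the other way, at −4.19 ± 0.15 in GPR35-positive and −5.53 ± 0.85 in GPR35-negative libraries, with the same p values.

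The order of the 10 levels differed between the groups. In GPR35-positive libraries Ptges3 and Ptgs2 led, each clear of the next gene, and Ptger2, Ptges, Ptges2, Ptger4, Ptgs1, Hpgds, Hpgd and Tbxas1 followed. Along that order Ptger2 and Ptges overlapped, as did each neighbouring pair from Ptges2 to Hpgds, and Hpgd and Tbxas1. In GPR35-negative libraries Ptges3 was followed by Ptges, at 8.33 ± 0.881 FPKM, and then by Ptgs2 and Ptges2, which overlapped at 4.80 ± 0.916 and 4.65 ± 1.65 FPKM (SD, n = 3). The other 6 genes were at or near 1 FPKM and below, and each overlapped its neighbour except Hpgds and Tbxas1.

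Of 30 other genes of the pathway and its targets 21 passed the filter, 12 higher, 6 lower and 3 not called, with a median log2 fold change of 0.39. Among all genes tested 23.3% were higher and 45.5% lower, with a median of −0.19. Pla2g4a, the cytosolic phospholipase that frees arachidonic acid, rose to 2.73 ± 0.274 FPKM in GPR35-positive libraries, compared with 0.137 ± 0.0631 FPKM in GPR35-negative ones (SD, n = 3 each, log2 fold change 1.71, limma adjusted p = 3.89e-08), and passed the filter only through the GPR35-positive libraries. Of 5 further synthase genes, 3 passed the filter, 1 higher and 2 lower. Fam213b, which encodes a prostamide and prostaglandin F synthase, was at 16.8, 14.4 and 14.6 FPKM in GPR35-positive libraries, compared with 0.903, 1.09 and 0.495 FPKM in GPR35-negative ones. Its ratio of means was 18.4 and its log2 fold change 3.16 (SE 0.13, limma adjusted p = 7.60e-09). It reached 1 FPKM in only 1 GPR35-negative library, so it too needed the GPR35-positive libraries to pass the filter.

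Akr1b3 and Cbr1, reductases that can also make prostaglandin F, fell by 0.49 and 0.31 on the log2 scale (limma adjusted p = 3.43e-04 and 0.00577). The Cbr1 call ended under median-of-ratios scaling (adjusted p = 0.0658). The prostacyclin synthase gene Ptgis was below the filter, with 31, 31 and 22 reads in GPR35-positive libraries against 13, 8 and 16 in GPR35-negative ones, and Ptgds, the other prostaglandin D synthase gene, had 0 to 2 reads.

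Of 4 genes for transport and later breakdown, 3 fell and 0 rose; 45.5% of all genes tested were also called lower. Slco2a1, which encodes the prostaglandin uptake transporter, was at 0.880 ± 0.201 FPKM in GPR35-positive and 1.90 ± 0.249 FPKM in GPR35-negative libraries (SD, n = 3 each, log2 fold change −0.63, limma adjusted p = 3.56e-04). It reached 1 FPKM in only 1 GPR35-positive library. Slco2a1 therefore needed the GPR35-negative libraries, where it is high, to pass the filter, and its direction is not support by itself. The efflux transporter gene Abcc4 fell by 0.58 and Ptgr1, a reductase acting after Hpgd, by 0.34 on the log2 scale (limma adjusted p = 4.03e-04 and 0.00802). The Ptgr1 call ended under median-of-ratios scaling (adjusted p = 0.0863); Ptgr2, at a log2 fold change of −0.15, did not pass (adjusted p = 0.153). The summed hepatocyte and hepatoma markers were also lower, at a ratio of 0.654, against 0.462 for Slco2a1, 0.636 for Abcc4 and 0.787 for Ptgr1, and the part of those cells was not tested.

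**Figure D4:**
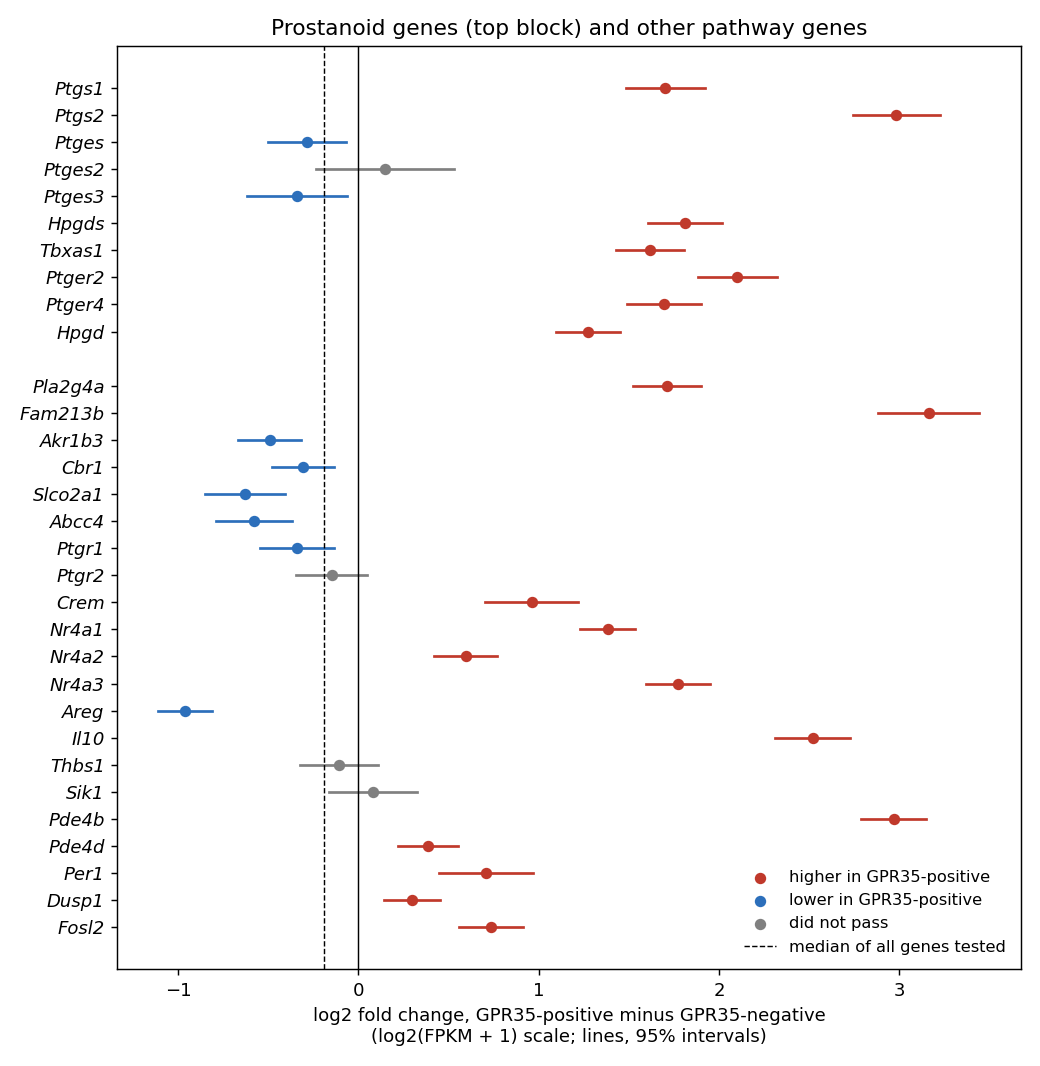
Log2 fold change, GPR35-positive minus GPR35-negative, of the 10 prostanoid genes (upper block) and of the 21 other pathway genes past the filter; lines are 95% intervals from limma, and colour shows the call. The dashed line is the median of all genes tested, −0.19; Ptges, Ptges2 and Ptges3 lie between −0.34 and 0.15, while Ptgs2 lies at 2.98 and Fam213b at 3.16.

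Of 13 genes known to respond to cyclic AMP, the second messenger of EP2 and EP4, 10 were higher and 1 was lower in GPR35-positive libraries, beside 23.3% higher and 45.5% lower among all genes tested. In the same libraries the summed neutrophil and macrophage markers were higher by ratios of 10.3 and 21.8, and their part in these differences was not tested. Many other signals also induce these genes. Nr4a3 passed the filter only through the GPR35-positive libraries. Pde4b, a phosphodiesterase that degrades cyclic AMP, was at 72.3 ± 3.04 FPKM in GPR35-positive and 8.39 ± 0.822 FPKM in GPR35-negative libraries, and the anti-inflammatory cytokine gene Il10 at 11.3 ± 1.28 FPKM in GPR35-positive and 1.15 ± 0.0284 FPKM in GPR35-negative libraries (SD, n = 3 each). Their log2 fold changes were 2.97 and 2.52 (limma adjusted p = 9.16e-10 and 4.67e-09). The nuclear receptor genes Nr4a3, Nr4a1 and Nr4a2 rose by 1.77, 1.38 and 0.59, the repressor gene Crem by 0.96, and Fosl2, Per1, Pde4d and Dusp1 by 0.73, 0.71, 0.39 and 0.30 on the log2 scale. Areg, which encodes the growth factor amphiregulin, fell to 36.6 ± 1.32 FPKM in GPR35-positive libraries, compared with 72.1 ± 3.18 FPKM in GPR35-negative ones (log2 fold change −0.96, limma adjusted p = 6.61e-07). Thbs1 and Sik1, at −0.11 and 0.08, did not pass (adjusted p = 0.341 and 0.520). The median of the 13 was 0.71, beside −0.19 for all genes tested.

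By the distance between centred log2(FPKM + 1) profiles over the 6 libraries, the genes most like Ptgs2 were H2-Aa, Laptm5 and Rdh12, at distances of 0.0591, 0.0849 and 0.122. They averaged 113, 61.8 and 24.0 FPKM in GPR35-positive and 13.5, 6.86 and 2.34 FPKM in GPR35-negative libraries. The genes most like Ptges were Strn4, Ankzf1 and Mzt2, at distances of 0.0420, 0.0752 and 0.0782, with averages of 1.75, 3.20 and 4.96 FPKM in GPR35-positive and 2.41, 4.01 and 6.22 FPKM in GPR35-negative libraries. All 6 points of each profile come from the same 2 groups of libraries, and nothing on shared function or control is read from the distances.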

How the data were processed

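RNA was measured in 6 libraries of mouse cells labelled as neutrophils, 3 per group. Total RNA was isolated with Trizol and made into libraries with a NEBNext Ultra II kit, per the labels' protocols. The authors deposited 1 table of FPKM per gene and library, per the file headers. HISAT2 2.1.0, HTSeq 0.9.1, DESeq 1.38.3, fastp 0.22.0 and the human build GRCh38 stand in the submitters' processing notes with no roles; the IDs are mouse Ensembl IDs, and the annotation and strand setting are not given in the sources used here. Symbols, exon lengths and positions came from GENCODE M21 on GRCm38, which held 21851 of 21959 IDs. With those lengths 97.7% of values above 0 were whole reads within 0.02 reads, which gave the reads per library.

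The test was limma-trend (limma 3.58.1, R 4.3.3) on log2(FPKM + 1) with no covariate, two-sided, and p-values were adjusted by Benjamini-Hochberg over all genes reaching 1 FPKM in 3 or more libraries; log2 fold changes understate changes of low genes. It was tested on simulated data in which most genes did not change. In these libraries 68.8% of genes tested were called, so the simulation does not cover that situation. Replicates of a group differed beyond sampling noise (mean chi-square per gene 5.57 to 22.8), so none was counted as a duplicate. Ratios within a library were compared with exact permutation tests (scipy 1.17.1); those of Hpgds, Tbxas1 and Hpgd to Ptgs2 and of Ptger2 to Ptger4 were added after values were seen. The members, lists and tests were chosen with earlier results of these data known. All members and pathway list genes are reported, and the 3 closest profiles for Ptgs2 and Ptges, without predicted genes. Motifs were chosen by hand and searched with Python 3.11.15. Alternatives were another pseudocount, no filter, a filter on the mean, median-of-ratios scaling, limma-voom on recovered reads, a replicate block and leaving out each library.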

Additional observations from a re-analysis of the deposited data

How the results depend on the processing

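The 7 genes that rose (Ptgs1, Ptgs2, Hpgds, Tbxas1, Ptger2, Ptger4 and Hpgd) kept their direction and passed under all 12 alternatives. Their log2 fold changes ran from 1.23 for Hpgd without GPR35-negative replicate 3 to 4.49 for Tbxas1 with limma-voom. The filter was set on all 6 libraries and was not reapplied when a library was left out. Ptgs1, Hpgds, Tbxas1, Ptger4 and Hpgd passed it only through the GPR35-positive libraries, so their repeated calls do not support a direction on their own. The number of genes called lower, 2, was 0 with median-of-ratios scaling and 0 without a filter, where limma gave 0 and 2 at an unadjusted p under 0.05, and 2 with limma-voom; it ranged from 0 to 2 when each library was left out. Ptges was at −0.16 with median-of-ratios scaling, −0.28 without a filter and −0.35 to −0.21 without single libraries. Ptges3 was at −0.20, −0.34 and −0.50 to −0.25. Ptges2 ranged from −0.012 without GPR35-negative replicate 1 to 0.37 without GPR35-negative replicate 3, where it made the higher count 8. Without a filter 19818 genes shared both the limma fit and the adjustment, against 10060. The cause of the changes under any alternative was not tested. Of 252 values of pathway genes 249 kept their call, 2 lost it (Cbr1 and Ptgr1) and 1 reversed, Thbs1 at 0.033 with median-of-ratios scaling. The replicate block gave 7 higher and 2 lower; same-numbered libraries had correlations of deviations of −0.00177, 0.400 and −0.0642, so the numbers were not taken as pairs. A pseudocount of 1 raised the difference in Ptgs2 share to 12.2 from 4.09 percentage points. Reads of Tbxas1 and Hpgd in GPR35-negative libraries and of 7 receptor genes limit precision.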

Other observations

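Within the GPR35-negative group the prostanoid genes differed by library. GPR35-negative replicate 1 had the highest value of its group for 9 of the 10 genes, all but Ptges2, and GPR35-negative replicate 3 had the lowest for 7 of the 10. The same counts over all genes were not made, so they are not read as a trait of the prostanoid genes. The summed neutrophil markers were 1089, 978 and 839 FPKM in replicates 1, 2 and 3 of that group, and the summed macrophage markers 50.1, 44.6 and 36.7 FPKM. The summed hepatocyte and hepatoma markers did not fall in that order, at 25999, 24692 and 25654 FPKM. Ptges2 had its highest level, 6.52 FPKM, in GPR35-negative replicate 3. In the GPR35-positive group the highest values were spread over the libraries, with 3, 5 and 2 of the 10 genes in replicates 1, 2 and 3. The part of cell mixture in these differences was not tested.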
